A study of Rattus norvegicus with 18 samples.

Results

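The comparison described here is that of the retina of diabetic rats given lixisenatide (DC + Lixi) with the retina of healthy control rats (NC). Its members are the 6 NC and the 6 DC + Lixi libraries, chosen by their titles, and they make up 12 of the 18 libraries of the series. The other 6 come from diabetic rats without lixisenatide (DC). All animals were male Wistar rats, 8 weeks old at the start, and the retinae were taken after 12 weeks. DC and DC + Lixi animals had received 35 mg/kg streptozotocin intravenously and counted as diabetic above a blood glucose of 14 mmol/L. DC + Lixi animals were given 150 µg/kg lixisenatide subcutaneously on 5 days a week from week 1 to week 12. NC and DC animals carry placebo as their treatment in the labels. Each animal gave 1 library of 50 bp single-end reads. The question is how far the retinal transcripts of treated diabetic animals still differed from those of animals that never had diabetes.

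Streptozotocin destroys the insulin-producing beta cells of the pancreas, so the model is one of insulin deficiency with sustained hyperglycemia. Lixisenatide mimics the incretin hormone GLP-1 and acts on the GLP-1 receptor, which on beta cells enhances glucose-dependent insulin release. The retina holds photoreceptors, interneurons, ganglion cells, Müller glia, astrocytes, microglia and capillaries of endothelial cells and pericytes. In diabetes its capillaries lose cells and its glia become reactive. Whole retina was sequenced, so a fall in a transcript can mean fewer cells of a type or less RNA per cell, and these cannot be told apart here. The files give genes by Ensembl gene numbers, 0 of which matched the gene table at hand. Genes are therefore described as groups, retinal marker genes could not be checked against the tissue label, and 4 gene numbers are named.

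Sequencing depth was alike in both groups. The counts per library summed to between 28954158 and 39131627 over the 12 libraries. Alignments per library averaged 58613482 ± 2727849 for NC and 60013654 ± 5849409 for DC + Lixi (SD, n = 6 each; two-sided exact permutation test, p = 0.61). The RNA integrity number, which scores how intact the RNA is, was 8.6 to 8.9 in NC and 8.4 to 9.4 in DC + Lixi, with a difference of means of 0.133 (two-sided exact permutation test, p = 0.463, adjusted p = 0.61 over the 4 single-value comparisons). RNA concentration did differ. It averaged 327 ± 127 ng/µl for NC and 587 ± 130 ng/µl for DC + Lixi (SD, n = 6 each; two-sided exact permutation test, p = 0.0108, adjusted p = 0.0433, where 6 against 6 animals can reach 0.00216). The ranges overlapped, from 212.16 to 541.04 ng/µl in NC and from 396.96 to 745.04 ng/µl in DC + Lixi. Each library carries a first (i7) and a second (i5) index. No i7 index was shared between NC and DC + Lixi libraries, so i7 index and group cannot be told apart, while the i5 indexes were used equally often in both groups. All libraries carry the same lane label.

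In DC + Lixi retinae 254 genes differed from NC, which was 1.54% of the 16524 genes tested (edgeR quasi-likelihood test, Benjamini-Hochberg adjusted p under 0.05). Of these, 157 genes rose (0.95% of those tested) and 97 fell (0.587%). Among the called genes the rises were larger than the falls. The median rise was 1.45-fold, with quartiles of 1.203 and 1.953 and a maximum of 10.8-fold. The median fall was 1.21-fold, with quartiles of 1.17 and 1.29 and a maximum of 3.13-fold. Changes of 1.5-fold or more numbered 82 (0.496% of those tested), made up of 71 rises (0.43%) and 11 falls (0.0666%). The larger the change, the more it was on the side of the rises: 37 genes rose and 3 fell at least 2-fold, and 9 rose and 0 fell at least 4-fold. At the other end, 36 rises and 45 falls were smaller than 1.2-fold. The count of 82 was not stable. It ran from 9 to 221 with 1 library left out and from 0 to 211 in the other settings. Over all genes tested the median absolute log2 fold change was 0.09 and its median standard error 0.08. No adjusted p reached 0.01, the smallest being 0.0147 in edgeR's test, and 3189 genes had an unadjusted p under 0.05.

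**Figure D1:**
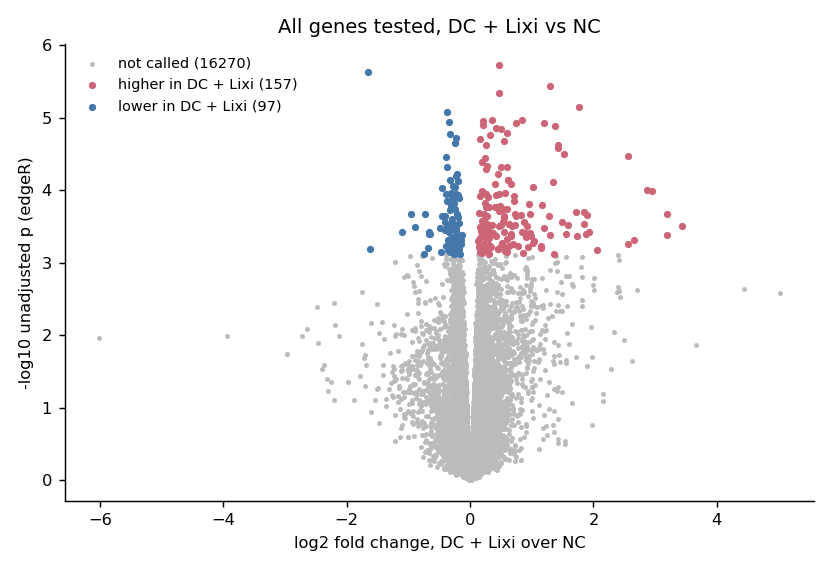
Log2 fold change of DC + Lixi over NC (x axis) and −log10 of the unadjusted p from edgeR's quasi-likelihood test (y axis) for the 16524 genes tested, with the called genes in colour. The 157 called rises extend to 10.8-fold and the 97 called falls to 3.13-fold.

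The balance of rises and falls was not the same in all settings. TMM scaling gave 157 rises and 97 falls, RLE size factors 158 and 89, and upper-quartile factors 164 and 103. Total counts alone, with the test unchanged, gave 139 and 294. The median log2 fold change of all genes was 0.0017 with TMM, 0.0011 with RLE, 0.0032 with upper-quartile factors and -0.028 with total counts. The median absolute log2 fold change with TMM was 0.09. With TMM kept but the DC libraries left out, 76 genes rose and 109 fell. Limma on log2(FPKM + 1), which changes the test and the measure together with the scaling, gave 71 rises and 236 falls.

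The single animals separated less cleanly than the group means. All 6 DC + Lixi animals were above all 6 NC animals in 149 genes (0.902% of those tested) and below them in 202 genes (1.22%). Of the called genes, 72 of 157 that rose and 63 of 97 that fell had no overlap between the groups. Overlap was found in rises of all sizes. There was none in 1 of the 9 genes that rose at least 4-fold, 10 of the 28 that rose 2- to 4-fold and 17 of the 34 that rose 1.5- to 2-fold. The same held for 23 of the 50 that rose 1.2- to 1.5-fold and 21 of the 36 that rose less than 1.2-fold. A further 216 genes had no overlap and were not called.

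The animals of the DC + Lixi group were far apart in the genes with large rises. Over the 9 genes that rose at least 4-fold, the median log2 difference from the NC mean was 3.97 in animal 428, 3.60 in animal 403 and 3.53 in animal 388. It was 0.88 in animal 418, 0.69 in animal 419 and 0.10 in animal 401. The NC animals, each taken against the mean of the other NC animals, lay between -0.47 and 0.33. Animal 401 was thus within the range of the controls. All 9 genes were above the highest NC value in animals 388, 403 and 428, against 7 in animal 418, 5 in animal 419 and 1 in animal 401. In the 6 DC animals the same 9 genes were 2.32 to 4.06 above the NC mean on the log2 scale. These genes were chosen for their values in DC + Lixi vs NC, so their levels are a description.

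A similar order of animals was seen in the 28 genes that rose 2- to 4-fold. Their median log2 difference from the NC mean was 1.99 in animal 428, 1.81 in animal 388 and 1.76 in animal 403, and 0.68 in animal 418, 0.53 in animal 419 and 0.42 in animal 401. All 6 animals were above the NC range of -0.15 to 0.14, taken in the same way. In the 34 genes that rose 1.5- to 2-fold the distances were smaller, from 0.34 in animal 419 to 1.13 in animal 428. In the 50 genes that rose 1.2- to 1.5-fold they ran from 0.25 in animal 401 to 0.53 in animal 403. In the 36 genes that rose less than 1.2-fold the animals lay close together, between 0.17 and 0.25.

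The spread within the group followed the size of the rise. Levels were taken as CPM, counts scaled to the library total after its adjustment by the TMM factor. The median SD of log2 CPM in the genes that rose at least 4-fold was 1.81 in DC + Lixi, 0.41 in NC and 0.49 in DC. In the genes that rose 2- to 4-fold it was 0.77 in DC + Lixi, 0.26 in NC and 0.34 in DC, and in those that rose less than 1.2-fold it was 0.066 in DC + Lixi and 0.076 in NC. The SD was larger in DC + Lixi than in NC for 116 of the 157 rises (73.9%) and 55 of the 97 falls (56.7%), compared with 53.6% of all genes tested. The rises and falls were called on these same animals, so their SDs and shares are a description. Over all genes the groups were not shown to differ in spread. The median distance of an animal from the other 5 of its group averaged 0.106 ± 0.0108 for NC and 0.111 ± 0.0103 for DC + Lixi on the log2 scale (SD, n = 6 each; two-sided exact permutation test, p = 0.444, adjusted p = 0.61).

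The RNA measures of these animals were mixed. Animals 428, 403 and 388 had integrity numbers of 8.4, 9.4 and 9, and animals 418, 419 and 401 had 8.7, 8.9 and 9. RNA concentrations were 630.88, 396.96 and 745.04 ng/µl in the first and 684.64, 477.28 and 588.88 ng/µl in the second. Animals 419 and 428 shared an i7 index and the other 4 another, so large and small differences were found under each i7 index. By i5 index, animal 388 was paired with 419 and animal 428 with 401, whereas animals 403 and 418 each had one of their own. Animal 401 had the most alignments (68360387). Missing counts restored from FPKM values made up 2.48% of its counts and at most 0.224% in any other library. Whether this bears on its levels was not tested.

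**Figure D2:**
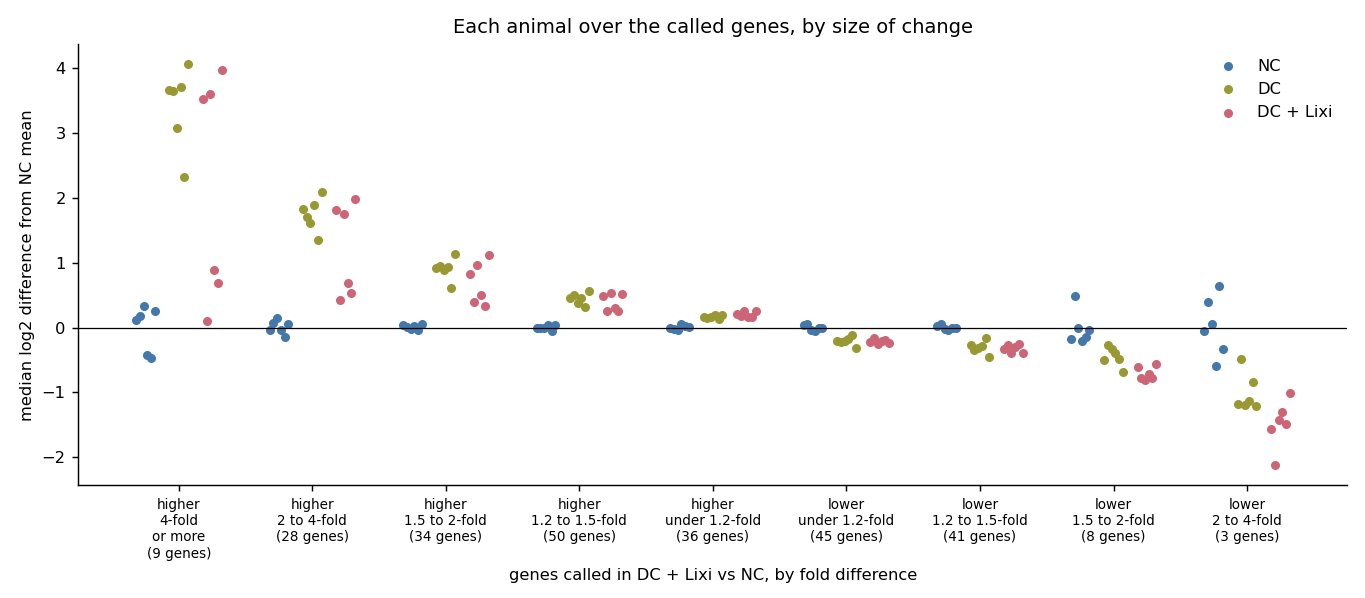
Median log2 difference from the NC mean (y axis) of each animal over the called genes, grouped by direction and size of the change in DC + Lixi vs NC (x axis), with 1 point for each of 6 animals per group. Each NC animal is taken against the mean of the other NC animals. In the 9 genes that rose at least 4-fold the DC + Lixi animals reach from 0.10 to 3.97, and in the 36 that rose less than 1.2-fold from 0.17 to 0.25.

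In the size classes from 1.2- to 4-fold, the genes that fell were more even among the DC + Lixi animals than those that rose. Below 1.2-fold they were not, with a median SD of log2 CPM of 0.077 in the falls and 0.066 in the rises. Over the 45 genes that fell less than 1.2-fold, the median log2 difference from NC lay between -0.26 and -0.16 in the 6 DC + Lixi animals. Over the 41 genes that fell 1.2- to 1.5-fold it lay between -0.40 and -0.25, and over the 8 that fell 1.5- to 2-fold between -0.81 and -0.56. The 3 genes that fell 2- to 4-fold spread from -2.13 to -1.01, and in none of them were the groups free of overlap. Each treated animal was below the lowest NC value in 82 to 95 of the 97 genes, and above the highest NC value in 117 to 155 of the 157 genes that rose. Over all genes tested each was below the lowest NC value in 15.8% to 21.1% and above the highest in 14.5% to 22.9%. The called genes were chosen on these same animals, so their counts are a description.

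The 2 named genes that rose differed in how evenly they did so. The level of ENSRNOG00000019018 was 20.9 CPM at the lowest, 21.5 at the median and 25.4 at the highest in NC, and 27.6, 31.5 and 34.5 CPM in DC + Lixi. All treated animals were above all controls. The fitted log2 fold change was 0.47 (SE 0.07, edgeR adjusted p = 0.0147). The DC animals had 30.2, 36.4 and 40.0 CPM, and DC + Lixi vs DC gave a log2 fold change of -0.21 (SE 0.07, edgeR adjusted p = 0.26).

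ENSRNOG00000021201 rose further and with more spread. Its level was 13.5, 14.8 and 16.1 CPM in NC (lowest, median, highest) and 21.5, 37.3 and 57.5 CPM in DC + Lixi, again without overlap. The treated animals themselves covered a wide range, with an SD of 12.8 CPM against 1.04 CPM in NC (n = 6 each). The log2 fold change was 1.30 (SE 0.20, edgeR adjusted p = 0.0147). In DC the level was 17.4, 28.2 and 39.6 CPM, and DC + Lixi vs DC gave 0.34 (SE 0.20, edgeR adjusted p = 0.477).

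Of the named genes that fell, ENSRNOG00000004000 was the more even. It was at 11.8, 12.7 and 14.5 CPM in NC (lowest, median, highest) and at 9.14, 10.13 and 10.6 CPM in DC + Lixi, with no overlap. The log2 fold change was -0.38 (SE 0.06, edgeR adjusted p = 0.0147). DC animals had 8.63, 9.66 and 10.4 CPM, and DC + Lixi vs DC gave 0.04 (SE 0.06, edgeR adjusted p = 0.812).

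ENSRNOG00000013973 fell further, but 1 control overlapped with the treated animals. Its level in NC was 1.79 CPM at the lowest, 5.95 at the median and 6.73 at the highest, and in DC + Lixi 1.08, 1.68 and 2.59 CPM. The lowest control, animal 439, is the library whose count for this gene was missing and was restored from its FPKM value, as 60 counts. The log2 fold change was -1.65 (SE 0.25, edgeR adjusted p = 0.0147). It was -1.57 with missing counts set to 0 (edgeR adjusted p = 0.123), so the call depends on that count. Without animal 439 the edgeR adjusted p was 1.71e-05. The DC animals had 2.14, 2.35 and 2.74 CPM, and DC + Lixi vs DC gave -0.47 (SE 0.25, edgeR adjusted p = 0.443).

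**Figure D3:**
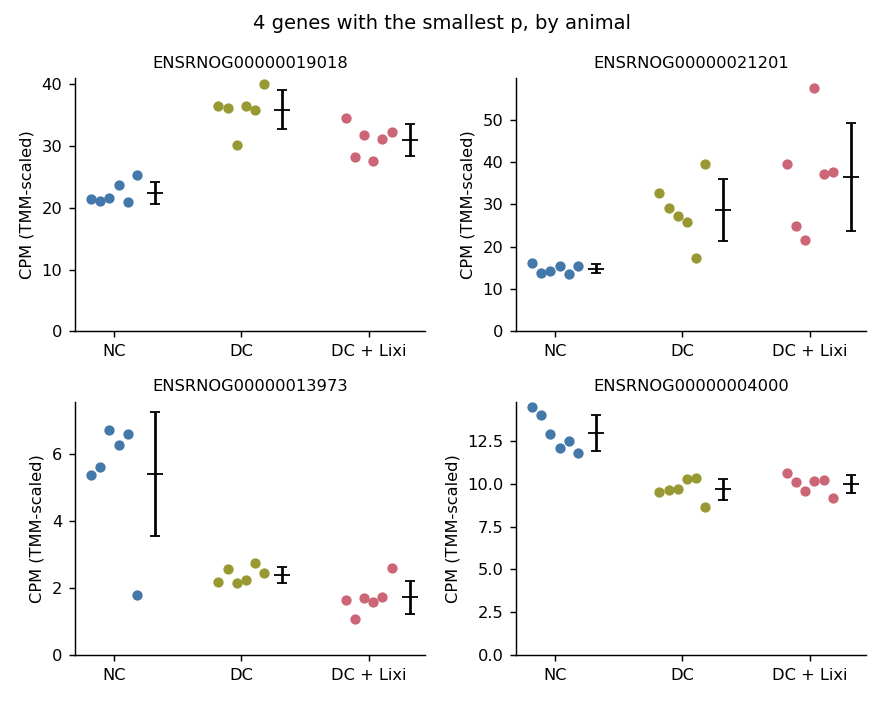
Level in CPM (y axis) of the 4 named genes in each animal of NC, DC and DC + Lixi (x axis), with 1 point per animal and the mean ± SD of each group. In 3 of the genes no DC + Lixi animal overlaps with NC, and in ENSRNOG00000013973 control animal 439 lies at 1.79 CPM, within the treated range.

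The DC libraries give the same genes a second set of values, although both comparisons share the NC animals. RNA integrity numbers were 9.2 to 9.5 in DC, all above the 8.6 to 8.9 of NC. RNA concentration averaged 537 ± 50.2 ng/µl in DC and 327 ± 127 ng/µl in NC (SD, n = 6 each). RNA integrity and group therefore cannot be told apart in DC vs NC. The genes that rose in DC + Lixi vs NC had a median log2 fold change of 0.53 in that comparison and of 0.58 in DC vs NC. The genes that fell had -0.27 and -0.26. In the 9 genes that rose at least 4-fold the medians were 2.86 with treatment and 3.70 without, and in the 36 that rose less than 1.2-fold 0.20 and 0.16. The transcripts of the 157 genes that rose together made up 0.838% ± 0.0163 of the counts in NC, 1.24% ± 0.103 in DC and 1.13% ± 0.186 in DC + Lixi (SD, n = 6 each). Those of the 97 genes that fell made up 0.650% ± 0.0246 in NC, 0.545% ± 0.0215 in DC and 0.533% ± 0.0182 in DC + Lixi. Between DC + Lixi and DC directly, edgeR called 0 genes (0% of 16524), with 2048 genes at an unadjusted p under 0.05. DESeq2 called 100 and limma-voom 0. RNA integrity differed here too, with a mean of 9.35 in DC and of 8.9 in DC + Lixi (range 8.4 to 9.4). Its part in this comparison was not tested.

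Calls were found at all levels of expression, and the size of the change fell with the level. Below a mean of 1 FPKM (a level per gene length and library size) 12 of 2704 genes rose and 3 fell, with median changes of 1.94-fold and 1.85-fold. Between 1 and 10 FPKM 60 of 5946 genes rose and 48 fell, by 1.59-fold and 1.26-fold. Between 10 and 100 FPKM 74 of 7235 genes rose and 44 fell, by 1.27-fold and 1.18-fold, and above 100 FPKM 11 of 639 rose and 2 fell, by 1.18-fold and 1.17-fold. The precision changed along with it. The median standard error of a log2 fold change was 0.26 below 1 FPKM and 0.05 between 10 and 100 FPKM. No fall of 1.5-fold or more was called above 10 FPKM, where 24 rises of that size were.

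Among the 100 most abundant genes edgeR called 0, with 20 at an unadjusted p under 0.05, while DESeq2 called 6 and limma-voom 0. Over all genes edgeR called 254 of 16524 (1.54%), with 3189 at an unadjusted p under 0.05. DESeq2 called 848 of 15426 and limma-voom 116 of 16524. Whether the 100 genes differ from all genes in these counts was not tested. Log2 fold changes of the 100 most abundant genes ran from -0.45 to 0.81, and 4 of them differed by 1.2-fold or more. Together they took 21.5% ± 1.21 of the counts in NC and 22.3% ± 0.249 in DC + Lixi (SD, n = 6 each). There was no gene counted in all 6 animals of either group and at 0 in all 6 of the other. Both groups had counts in all animals for 17500 of the 32623 genes, and 9310 genes were at 0 in all 12 animals.

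The genes that fell were, at the median, longer than those that rose. Gene length was taken as the count divided by the FPKM value, relative to the median gene tested. The median relative length was 1.39 for the genes that fell and 1.00 for those that rose. Tested genes were ranked by length in 5 bins of equal size. In the shortest bin 4 fell (0.121%) and 24 rose (0.726%), and in the longest 33 fell (0.998%) and 35 rose (1.06%). The median log2 fold change of all genes was 0.02 in the shortest and -0.01 in the longest bin. This length difference also varied between libraries. The log2 difference of the longest from the shortest bin ran from -0.071 to 0.026 in NC and from -0.087 to 0.0035 in DC + Lixi. Its part in the calls was not tested.

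Values of animals that took no part in choosing the genes were read by leaving out each animal, calling genes on the rest, and looking them up in the animal left out. For the genes called higher, the median log2 difference from NC was 0.62 in animal 388, 0.54 in animal 403 and 0.56 in animal 428. It was 0.21 in animal 418, 0.16 in animal 419 and 0.11 in animal 401. Control animals left out in the same way lay between -0.016 and 0.14, with animal 401 within their range and animal 419 just above it. Each value was read on a different set of genes, chosen without the animal in question, so the animals are not compared on like genes. On 1 shared set, the 18 genes called higher whichever NC or DC + Lixi animal was left out, animal 401 was at 0.35. There it was above the highest NC value in 17 of the 18. Unlike the left-out values, these rest on genes that animal 401 helped to choose. It was in the main fit and in every leave-one-out fit but its own, so its values on this set are a description. For the genes called lower, the treated animals lay between -0.39 in animal 428 and -0.11 in animal 401, and the controls between -0.14 and 0.05. The number of genes behind each value differed, from 20 rises and 7 falls without animal 428 to 400 rises and 211 falls without animal 401.

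**Figure D4:**
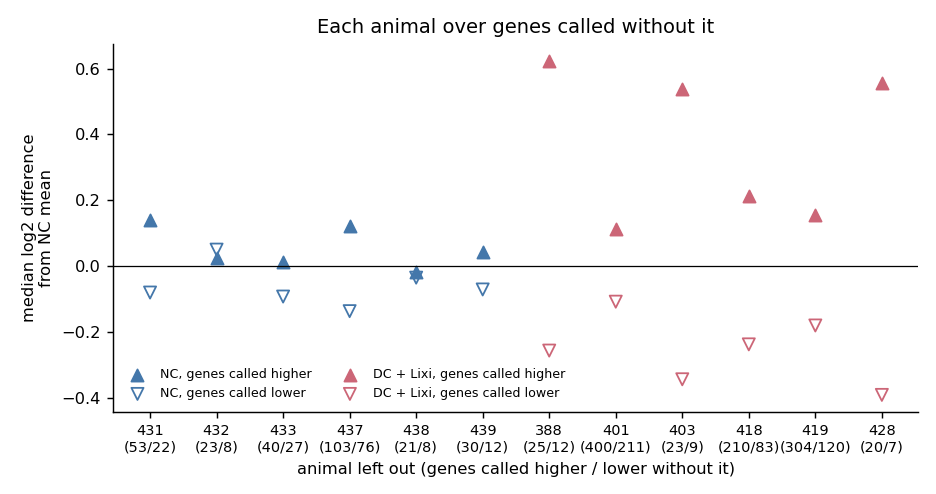
Median log2 difference from NC (y axis) in each left-out animal (x axis), over the genes called higher and lower in a fit without that animal. Animals 388, 403 and 428 reach 0.54 to 0.62 in the genes called higher, and animals 401, 418 and 419 reach 0.11 to 0.21. The set of genes differs from animal to animal.

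The number of calls depended strongly on single libraries. Among the treated animals it was 611 without animal 401, 424 without 419 and 293 without 418, against 37 without 388, 32 without 403 and 27 without 428. Without a control animal it was 75 (animal 431), 31 (432), 67 (433), 179 (437), 29 (438) and 42 (439). The DC animals enter through the shared estimate of spread, and the count was 122 without DC animal 386 and 402 without DC animal 425. With all DC libraries left out it was 185, and changes of 1.5-fold or more went from 82 to 35. The shared estimate takes the spread of a gene to be the same in each group. In the genes that rose at least 4-fold the median SD was 1.81 in DC + Lixi, 0.41 in NC and 0.49 in DC. The part of this unequal spread in the calls was not tested. Of the 254 genes, 24 were called in each of the 12 fits that left out 1 NC or DC + Lixi animal, 18 of them higher and 6 lower. A further 27 were called in at least 6 of these fits, and 203 in 1 to 5.

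These 24 genes were chosen for keeping their call whichever animal was left out, so that single animals lie close together at their median is in part built into the choice. The 18 that rose had a median change of 1.40-fold, and 17 of them had no overlap between the groups. The median log2 difference of single treated animals ran from 0.35 to 0.60, and the median log2 fold change was 0.49 against NC, where the DC animals had 0.48. The 6 that fell had a median change of 1.26-fold, 5 of them without overlap, and the single animals ran from -0.42 to -0.25. Their median log2 fold change was -0.33 against NC, where the DC animals had -0.25. All 4 named genes belong to these 24, among them ENSRNOG00000021201 with its wide range in DC + Lixi.

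The RNA measures also bore on the number of calls. With the integrity number as a covariate edgeR called 32 rises and 13 falls. The median ratio of the new to the old log2 fold change over the 254 genes was 0.990, and their median standard error went from 0.078 to 0.080. With log2 RNA concentration as a covariate edgeR called 0 genes, with 1620 at an unadjusted p under 0.05 and a smallest adjusted p of 0.315. Fold changes of the 254 genes were at a median of 0.964 of their former size and all kept their direction, while the median standard error rose to 0.116. The named genes then had log2 fold changes of 0.36 (ENSRNOG00000019018), 1.06 (ENSRNOG00000021201), -1.20 (ENSRNOG00000013973) and -0.29 (ENSRNOG00000004000), with edgeR adjusted p-values of 0.355 to 0.379. Concentration and group overlap only in part, so with 6 animals a group the share of each in these differences cannot be told apart.

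**Figure D5:**
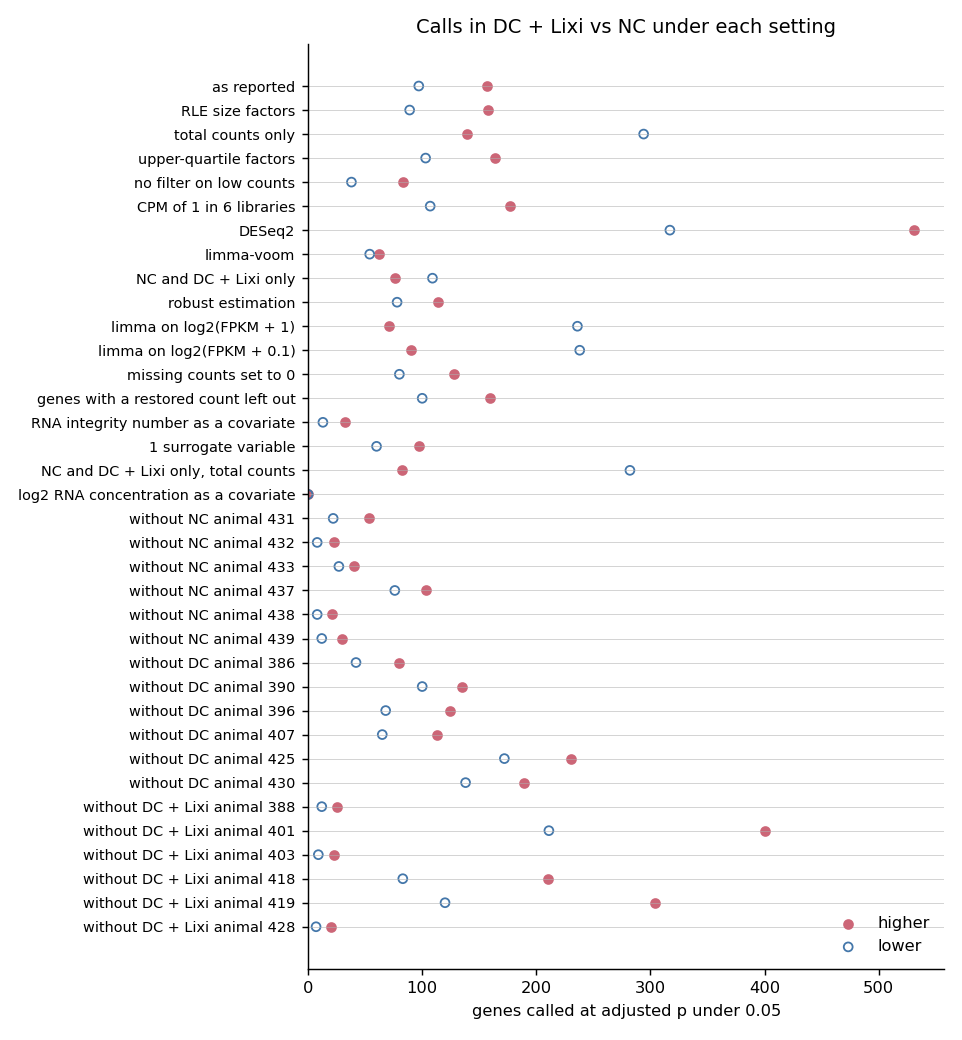
Number of genes called higher (filled) and lower (open) in DC + Lixi vs NC (x axis) under each setting and with each library left out (y axis). The reported fit gives 157 and 97, and the settings range from 0 calls with RNA concentration as a covariate to 531 and 317 with DESeq2.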

How the data were processed

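Members and lists were chosen with earlier results of these data known. According to the methods, the authors mapped the reads to a rat gene model in Array Studio and used its DESeq2 module, also named in the submitters' processing notes. For the aligner, genome build and annotation, details were not given in the sources used here. The authors deposited estimated counts per gene, not normalized (26.5% of those above 0 are not whole), and FPKM values, scaled by gene length and depth. A deposited sheet lists for each library the count of alignments, the RNA integrity number (a score), RNA concentration and the absorbance ratio.

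No count was given in 46805 of 587214 cells. Those with an FPKM of 0 (42724) were set to 0. In the other 4081 the count was restored from FPKM where the gene's other libraries gave the scale (1504 cells, 7 called genes have one), and otherwise set to 0 (2577). On 20000 cells with known counts the median error of restoring was 0.00175% and the 99th percentile 10.4%. The restored cells were not like a random draw, since 75.5% of them held the highest FPKM of their gene. The largest restored count was 30645, in animal 401, where the other libraries had 10033 to 22183 for that gene. The error in the restored cells themselves is therefore not known. Restored counts made up 2.48% of the counts of DC + Lixi animal 401 and at most 0.224% elsewhere.

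Counts were rounded and analysed in R 4.3.3 with edgeR 4.0.16: filterByExpr with the 3 groups, TMM (factors 0.967 to 1.046), and 1 quasi-likelihood fit over 18 libraries with 15 residual degrees of freedom. The call was a Benjamini-Hochberg adjusted p under 0.05. No library repeated another (chi-square per gene of at least 10.5 in all 153 pairs). Single values were compared by exact permutation over animals. Counts were simulated for DC + Lixi vs NC on 16524 genes. Of 100 genes changed 1.5-fold 68 were recovered, and of 100 changed 2-fold 85, with 3 false calls. All simulated DC + Lixi animals had the same fold, and both groups the same spread. Called genes that rose at least 4-fold did not have this, with a median SD of 1.81 in DC + Lixi and 0.41 in NC. Recovery and false calls in the real data can therefore differ from those simulated. Alternatives used DESeq2 1.42.0, limma 3.58.1 (voom, and log2(FPKM + 1) or log2(FPKM + 0.1)) and sva 3.50.0. Those added after seeing the data were leaving out 1 DC library at a time, total counts without DC, FPKM for the spread, and RNA concentration as a covariate. The TMM fit without any DC library had been planned. The rule for named genes, without gene names, was the 2 gene numbers with the smallest p in each direction. Gene lists and cell type markers had been fixed by symbol and could not be used.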

Additional observations from a re-analysis of the deposited data

Results flagged for a closer look

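Of 24 sets of 6 values, 2 held a sample far from the others of its group, by the ratio of its gap to the range of the group (Dixon's 95% critical value). Chance gives about 1 in 20 such sets. The absorbance ratio, a measure of RNA purity, was 1.86 in NC animal 431, the lowest of the controls. The level of ENSRNOG00000013973 was 1.79 CPM in NC animal 439, the lowest of the controls, and rests on the restored count.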

How the results depend on the processing

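The number of genes called in DC + Lixi vs NC was 254 as reported. It was 433 with total counts only, 121 without a filter on low counts, 848 with DESeq2, 116 with limma-voom, 45 with RNA integrity as a covariate, 157 with 1 surrogate variable and 0 with log2 RNA concentration as a covariate (1620 genes at an unadjusted p under 0.05). In the other 10 settings it was within 1.5 times the reported count. Leaving out 1 library gave 27 to 611 calls. The cause of these changes was not tested. Leaving out 1 library gave a difference in the RNA integrity number of 0.0333 to 0.233, in RNA concentration of 228.7 to 303.0 ng/µl, in alignments of -269174 to 2946849 and in spread of -0.00135 to 0.0112. The alignments reversed without DC + Lixi animal 401 (-269174) and the spread without NC animal 439 (-0.00135), neither of which had passed its test. The 4 named genes kept their direction in every setting run. They kept their call except with RNA concentration as a covariate and, for ENSRNOG00000013973, with missing counts set to 0, and that gene has no value where genes with a restored count were left out. No paired analysis was possible because the animal numbers differ between the groups. The alternatives for gene lists were not run, since no gene name was at hand. Depth limits the genes below 1 FPKM most, where the median standard error was 0.26 on the log2 scale.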
